A study of Caenorhabditis elegans with 12 samples.

Results

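The comparison is of naringin with its solvent in worms kept on glucose, 3 Nar+Glu libraries against 3 DMSO+Glu libraries out of the 12 libraries of the series. Naringin is a citrus flavonoid glycoside, and dimethyl sulfoxide (DMSO) is the solvent it was given in. All groups were whole wild-type N2 Caenorhabditis elegans, raised at 20 °C on OP50 bacteria and treated from the fourth larval stage (L4) onward. Control worms had no added glucose, Glu worms had 2% glucose, DMSO+Glu worms had 2% glucose with DMSO, and Nar+Glu worms had 2% glucose with 25 μM naringin in DMSO. Both groups compared therefore carried the glucose and the solvent. Progeny were removed by sedimentation, and the libraries were made from poly(A)-enriched RNA. The libraries of a group are numbered by replicate, from DMSO+Glu 1 to 3 and from Nar+Glu 1 to 3. Of 15365 genes measured, 12151 averaged more than 1 FPKM across all 12 libraries and were tested. FPKM are fragments scaled to the length of the transcript and to the mapped fragments of the library. Of 24071 transcripts, 17588 passed the same filter.

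The adult worm is a tube of intestine inside a layer of muscle and a hypodermis that secretes the collagen cuticle, with a large hermaphrodite gonad that first makes sperm and then oocytes. The intestine digests bacteria, stores fat and makes yolk. In whole worms, fewer cells of a type and less RNA per cell cannot be told apart.

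Defining markers of the tissues were present in all 6 libraries. The intestinal GATA factor gene elt-2 differed by 0.03 on the log2 scale between the groups, and the muscle myosin gene myo-3 by 0.19, neither past the test. Summed marker levels were 1182 to 1240 FPKM in DMSO+Glu and 960 to 978 FPKM in Nar+Glu for 10 intestinal genes, 176 to 204 and 116 to 122 FPKM for 9 hypodermal genes, and 118 to 145 and 140 to 152 FPKM for 9 neuronal genes. The intestinal and hypodermal sums did not overlap between the groups, and the neuronal sums did. These sums give most weight to abundant genes, asp-1 and col-19 among them, whose levels are given below. Single genes were divided, with 4 intestinal genes above 0 and 6 below, and 4 hypodermal genes above 0 and 5 below. The 7 body wall muscle markers summed to 603 to 642 FPKM in DMSO+Glu and 535 to 563 FPKM in Nar+Glu, without overlap. Of these 7, 2 were called lower and 0 higher, at a median of -0.06. Their changes ran from -0.47 to 0.19, with 3 above 0 and 4 below. The count of 2 became 1 without DMSO+Glu 2, Nar+Glu 2 or Nar+Glu 3, and 3 without Nar+Glu 1. The 3 hypodermal markers called, col-7, col-19 and rol-6, are themselves cuticle collagens, and the rol-6 call was lost without DMSO+Glu 2 (adjusted p 0.0671), DMSO+Glu 3 (0.0523), Nar+Glu 1 (0.0643) or Nar+Glu 2 (0.0635). The 2 male marker genes summed to 0.5 to 1.5 FPKM and did not pass the filter. Neuron markers had 2 calls, which became 0 without any library except DMSO+Glu 2. Libraries of 1 group correlated at 0.987 to 0.990 across genes and libraries of the 2 groups at 0.979 to 0.984. The number of fragments behind the values is unknown, and the labels do not say whether the replicates came from separate cultures, so the p-values measure only the spread between these samples, which may be technical.

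The test called 1199 of the 12151 genes (9.87%), with 592 higher in Nar+Glu (4.87%) and 607 lower (5%). A call is a Benjamini-Hochberg adjusted p below 0.05 in limma on log2(FPKM + 1), a scale that understates the change of genes near 1 FPKM. Most changes were small, with 29 rises and 48 falls past 2-fold. The direction varied with abundance. Among genes with a mean of 1 to 5 FPKM, 245 were called higher and 94 lower, whereas among the 468 genes above 100 FPKM 16 were called higher and 117 lower. No gene list was compared with genes matched on abundance. How far the falls in lists of abundant genes follow this split was therefore not tested. The median change of all genes was -0.01, and the 3 libraries of 1 group all lay above or all below the other group for 34.6% of genes. The count of calls fell most when any library except DMSO+Glu 2 was left out. Leaving out a library also makes its group smaller, and whether lost calls came from that or from the library itself was not tested. Leaving out DMSO+Glu 1 or 3 gave 555 or 623 genes, and leaving out Nar+Glu 1, 2 or 3 gave 621, 717 or 591. With a library covariate and no moderation of the variance, in the manner of the study's own tool, 2 genes were called and 1816 had an unadjusted p below 0.05. Where the call of a named gene was lost in any of the 16 other alternatives, at least 1 such loss is given with the gene or its list.

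**Figure D1:**
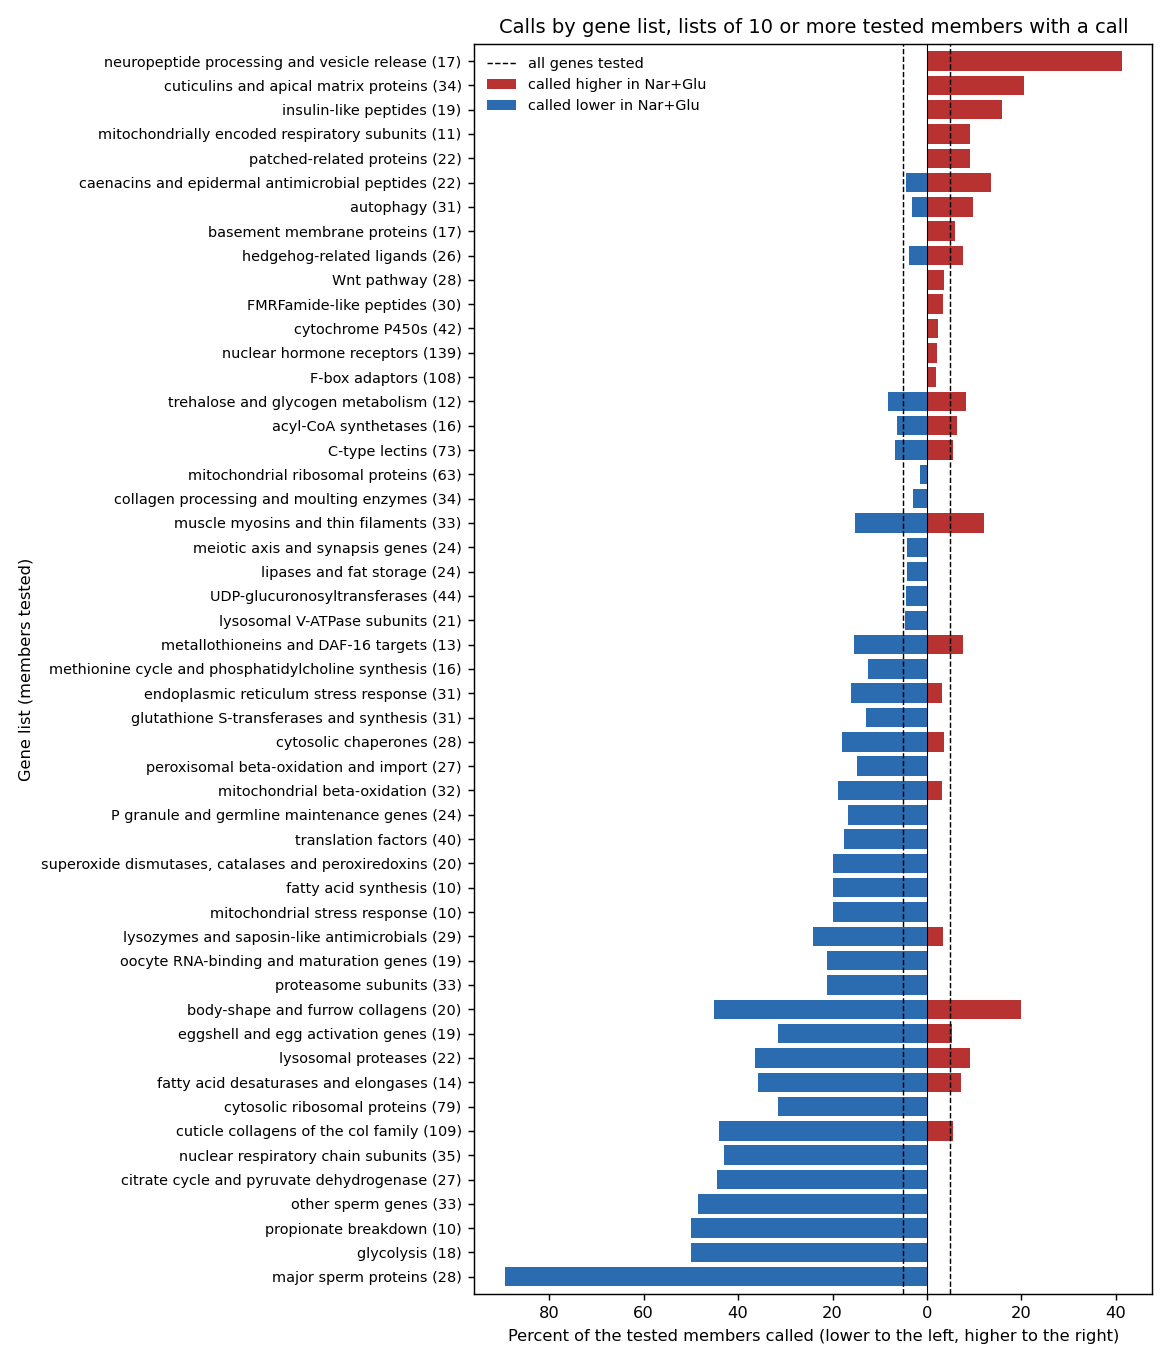
Percent of the tested members of each gene list called lower (left, blue) and higher (right, red) in Nar+Glu, for lists of 10 or more tested members with at least 1 call, with dashed lines at the 4.87% and 5% of all genes. The major sperm protein genes reach 89.3% lower, and the genes of neuropeptide processing and vesicle release reach 41.2% higher.

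Cuticle collagens changed in both directions, and more of them were lower than higher in Nar+Glu. These genes encode the secreted collagens that the hypodermis cross-links into the cuticle, and they are expressed in stage-specific waves tied to the moults. Of 121 col genes measured, 109 were tested, and 48 were called lower and 6 higher, where 5% and 4.87% of all genes were called in those directions. Their median change was -0.38, and their summed level was 5620 ± 149 FPKM in DMSO+Glu and 4165 ± 507 FPKM in Nar+Glu (SD, n = 3).

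The largest fall among the called genes was in col-81 (chromosome II, 11012397 to 11013767). It measured 34.3, 33.5 and 33.5 FPKM in the DMSO+Glu libraries and 11.1, 8.69 and 9.45 FPKM in the Nar+Glu libraries, on the log2 scale a change of -1.70 (SE 0.09, adjusted p 6.94e-08). All 3 naringin libraries were below every solvent library, as the selection of the largest falls required. For col-139 (chromosome V, 4652863 to 4653971) the values were 52.5, 57.2 and 52.2 FPKM with solvent and 19.7, 13.9 and 16.8 FPKM with naringin, a change of -1.64 (SE 0.10, adjusted p 2.22e-07). The adult-stage collagen gene col-19 (chromosome X, 421707 to 422691), widely used as a marker of the adult hypodermis, was at 101.4, 109 and 105 FPKM against 44.1, 37.5 and 40.8 FPKM. Its change was -1.35 (SE 0.07, adjusted p 1.10e-07), and the groups did not overlap, which the same selection required. Other large falls were in col-129 (-1.50), col-20 (-1.49), col-124 (-1.45) and col-93 (-1.41). Control and Glu worms had means of 109 and 126.4 FPKM for col-19, 30.1 and 55.9 FPKM for col-81 and 51.7 and 98.4 FPKM for col-139, so that Nar+Glu had the lowest mean of the 4 groups for each of these.

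A smaller set of collagens rose. The largest rise of a collagen gene was in col-74 (chromosome II, 5830374 to 5832022), at 28.3, 40.7 and 35.6 FPKM with solvent and 107, 93.2 and 96.4 FPKM with naringin, on the log2 scale a change of 1.49 (SE 0.10, adjusted p 8.02e-07). Every naringin library was above every solvent library, as the selection of the largest rises required. The gene col-165 (chromosome X, 4353618 to 4354852) rose by 1.47, from 24.2, 31.01 and 29.2 FPKM to 85.3, 73.9 and 79.9 FPKM. At a lower level, col-121 (chromosome IV) rose by 1.16, from 3.30, 2.91 and 3.76 FPKM to 9.77, 8.12 and 8.11 FPKM. Control means were 20.4 FPKM for col-74 and 16.4 FPKM for col-165, and Nar+Glu had the highest mean of the 4 groups for both.

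The collagens that set body shape and form the furrows between the cuticle ridges were split as well. Of 20 such genes, all tested, 4 rose and 9 fell, with a median change of -0.48. The risers were dpy-17, dpy-14, dpy-10 and sqt-3, of which the last 2 are also among the larval moult markers. Expression of dpy-17 (chromosome III, 5107330 to 5108492) was 41.2, 41.8 and 40.1 FPKM in DMSO+Glu and 98.9, 89.1 and 91.4 FPKM in Nar+Glu, on the log2 scale a change of 1.16 (SE 0.06, adjusted p 6.94e-08). Expression of dpy-14 (chromosome I, 6843589 to 6845142) was 43.5, 50.6 and 49.9 FPKM against 103, 100.2 and 113 FPKM, a change of 1.12 (SE 0.07, adjusted p 2.22e-07). For both genes the 3 naringin libraries were the highest of all 6, as the selection of the largest rises required. The rises of sqt-3 and dpy-10 were 0.65 and 0.67. Among those that fell, the blister collagen gene bli-6 changed by -0.91, from 19.9, 23.5 and 20.0 FPKM to 12.2, 9.46 and 10.7 FPKM, and sqt-1 changed by -0.64. The 9 falls became 3 without DMSO+Glu 2 or Nar+Glu 2, 4 without Nar+Glu 3, and 5 without DMSO+Glu 3. Leaving out DMSO+Glu 1 or Nar+Glu 1 gave 6.

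**Figure D2:**
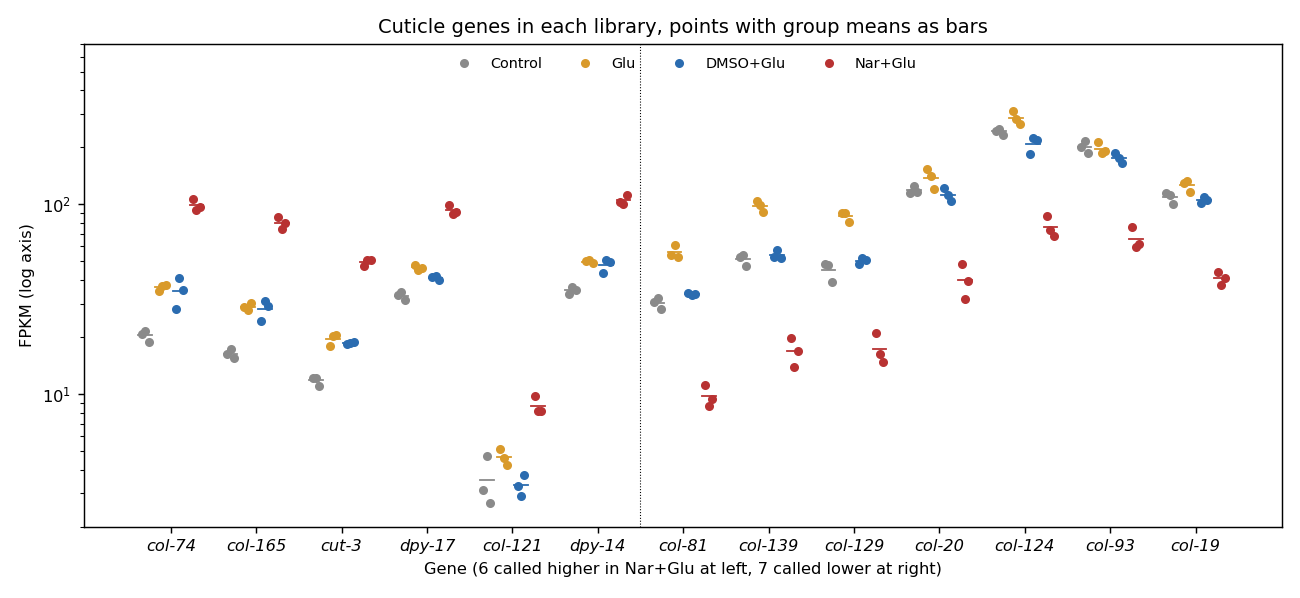
Expression of 13 cuticle genes in each library (FPKM on a log axis), with points for the 3 libraries of a group and bars for the group means. For the 6 genes at the left the Nar+Glu libraries lie above all others, and for the 7 at the right they lie below all others, with col-81 near 10 FPKM against 33.8 FPKM in DMSO+Glu. The selection of these genes required that Nar+Glu and DMSO+Glu not overlap.

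Cuticulins and other apical matrix proteins, which line the outer surface of the hypodermis and the cuticle ridges, lay above 0 in 32 of 34 cases. Of 43 measured, 34 were tested, 7 rose and 0 fell by limma, 1 had an unadjusted p below 0.05 in the lower direction, and the median change was 0.28. The zona pellucida domain gene cut-3 (chromosome II, 8445169 to 8446831) measured 18.5, 18.6 and 18.9 FPKM in DMSO+Glu and 47.3, 50.8 and 50.8 FPKM in Nar+Glu. That is a 2.66-fold difference of the means and on the log2 scale a change of 1.36 (SE 0.07, adjusted p 6.94e-08). The gap between the groups was far wider than the spread within either, although the selection of the largest rises required a gap. The gene dex-1, whose product shapes the cuticle ridges of seam cells and anchors sensory endings, rose by 0.57 (5.63, 6.16 and 6.14 against 9.44, 9.50 and 9.14 FPKM). A gene at the lower end, cutl-23, rose by 0.85, from 1.23 to 1.39 FPKM up to 3.04 to 3.33 FPKM. The 7 calls became 4 without DMSO+Glu 1, DMSO+Glu 3 or Nar+Glu 1, and 13 with median-ratio scaling.

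Enzymes that process collagen had few calls. Of 34 tested, 1 fell and 0 rose by limma (5 had an unadjusted p below 0.05 in the higher direction), at a median of 0.06, which became 0.03 with quantile normalization. The same scaling gave 3 rises, and median-ratio scaling gave 2. The member that fell, pdi-2, encodes the disulfide isomerase subunit of prolyl 4-hydroxylase, and changed by -0.24 (adjusted p 0.0125). It missed the threshold without DMSO+Glu 3 (0.0527) or Nar+Glu 3 (0.0501). In the basement membrane, the sheet of collagen IV and laminin under the epithelia, 1 of 17 genes was called, the laminin gene lam-3, which rose by 0.59 from 5.37, 5.89 and 5.62 FPKM to 8.86, 8.79 and 9.17 FPKM. Of 26 hedgehog-related ligand genes tested, which are largely hypodermal in the worm, grl-1 rose by 0.77 and grd-3 fell by 0.56. A further ligand gene, wrt-2, rose by 0.65 (adjusted p 0.0117), a call lost without DMSO+Glu 1 (0.0578).

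Markers beside these cuticle changes moved in part with them. Among 22 larval moult markers 2 were higher and 4 lower, all 6 of them cuticle collagens, at a median of 0.14 (5 were higher with median-ratio scaling or quantile normalization), and their sum was 449 to 540 FPKM with solvent and 493 to 553 FPKM with naringin. The hypodermal transcription factor genes elt-3 and nhr-25 differed by 0.12 and 0.26, neither past the test. Zygotic embryo markers, of which 8 of 13 were tested, had 1 call, the muscle regulator unc-120 (0.57, adjusted p 0.0365), which was lost without any library except DMSO+Glu 2 (0.0655 to 0.13). Their sum was 45.2 to 51.6 FPKM with solvent and 55.5 to 56.6 FPKM with naringin. The part of eggs or of moulting animals in the cuticle changes was not tested.

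The major sperm protein genes had the highest share of calls of any list, at 89.3%, and the other sperm genes had 48.5%. Major sperm proteins are small cytoskeletal proteins that drive the crawling of nematode sperm, and they are also released as a signal for oocyte maturation. All 28 msp genes measured were tested, 25 fell and 0 rose by limma (none of the 28 lay above 0), at a median of -1.05. Their summed level was 185, 179 and 151 FPKM in DMSO+Glu and 54.2, 76.4 and 67.8 FPKM in Nar+Glu. The sums did not overlap. Control worms were at 164 ± 16.7 FPKM and Glu worms at 304.5 ± 7.06 FPKM (SD, n = 3).

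Single msp genes show the same spacing. For msp-51 (chromosome IV, 5294957 to 5295340) the values were 9.22, 8.23 and 9.28 FPKM with solvent and 2.91, 3.76 and 1.79 FPKM with naringin, a change of -1.41 (SE 0.15, adjusted p 6.76e-05). The gene msp-76, on the same chromosome, changed by -1.45 (7.55, 11.2 and 9.88 against 1.81, 4.52 and 2.62 FPKM), and msp-10 by -1.34 (6.06, 6.13 and 4.84 against 1.61, 1.68 and 1.62 FPKM). No naringin library reached the lowest solvent library for any of these genes, which the selection required for msp-51 and msp-76 but not for msp-10. Among the 3 members not called, msp-40 stood at -0.89 (adjusted p 0.0569), msp-50 at -0.73 and msp-38 at -0.16. The msp genes are near-identical copies, so the split of reads among them is uncertain, and the sum over the family is given for that reason.

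Other sperm genes moved the same way. Of 47 measured, 33 passed the filter on low values, 16 fell and 0 rose by limma, and all 33 lay below 0, at a median of -0.61. The sperm-specific family genes ssq-4, ssq-2 and ssp-9 changed by -1.11, -0.95 and -1.04. For ssq-4 the libraries read 3.68, 3.24 and 2.83 FPKM with solvent and 1.498, 0.838 and 0.654 FPKM with naringin. The count of 16 became 10 without DMSO+Glu 2, Nar+Glu 2 or Nar+Glu 3, and the 25 msp calls ranged from 20 to 22. Outside these lists, K08D12.6 (chromosome IV, 1720790 to 1723072) was among the 12 largest falls at -1.37, with 138, 89.9 and 91.9 FPKM against 55.0, 29.5 and 38.6 FPKM.

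**Figure D3:**
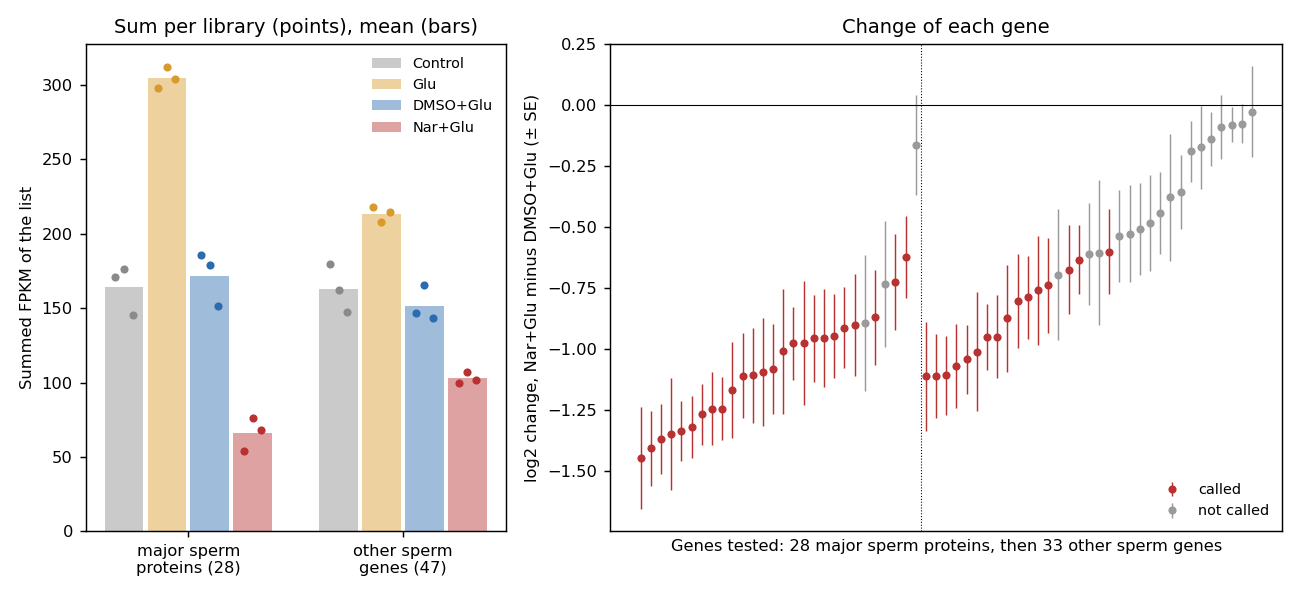
Left, summed FPKM of the 28 major sperm protein genes and the 47 other sperm genes in each library (points) with group means (bars). Right, log2 change of each tested gene with its SE, red where called. The Nar+Glu sums are the lowest of the 4 groups for both lists, and no gene of either list lies above 0.

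Genes of oocytes and eggs had smaller differences. Of 19 oocyte RNA-binding and maturation genes 4 fell, among them puf-5, a translational repressor in oocytes (-0.30, adjusted p 0.0217), and rme-2, the yolk receptor (-0.28, adjusted p 0.0242). All 19 lay below 0, at a median of -0.18, and quantile normalization gave 2 falls and a median of -0.09. Of 19 eggshell and egg activation genes 6 fell and 1 rose, with egg-1, an egg-surface receptor needed for fertilization, at -0.31 (adjusted p 0.0149). Most of these calls were lost when 1 library was left out, and calls over all genes also fell, from 1199 to 555 without DMSO+Glu 1. Without DMSO+Glu 1 there were 0 falls in either list (adjusted p 0.0957 for puf-5, 0.106 for rme-2 and 0.068 for egg-1). The oocyte list also had 0 without DMSO+Glu 3, Nar+Glu 1 or Nar+Glu 3, and the eggshell list had 1, 1 and 2. Among 24 P granule genes 4 fell, a count of 0, 1 and 2 without DMSO+Glu 1, Nar+Glu 1 and Nar+Glu 3 and of 7 with median-ratio scaling. Among 24 genes of the meiotic chromosome axis 1 fell, the axis gene htp-1 (-0.34, adjusted p 0.0089; 34.3, 28.8 and 32.03 against 24.9, 24.3 and 24.9 FPKM).

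Yolk protein genes, which the intestine expresses for export to oocytes, changed unevenly. Of the 6 vit genes, vit-1 fell by 0.81 (183, 165.5 and 168 against 98.5, 103 and 91.8 FPKM, adjusted p 9.05e-07), and vit-3 fell by 0.30. The most abundant, vit-6, differed by less than 0.01 between group means of 2117 and 2112 FPKM, and vit-2 and vit-5 were at 0.07 and -0.07. A call of vit-4 (-0.25, adjusted p 0.0153) was lost without DMSO+Glu 1 (0.0624) or 3 (0.0594) and without Nar+Glu 1 (0.0545) or 3 (0.0652). Reads of vit-3, vit-4 and vit-5 are hard to tell apart because their sequences are alike. Glu worms had the lowest vit-3 mean of the 4 groups, at 389 FPKM, against 828 FPKM in Control.

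Lipid genes were called lower at several steps. The share called lower ran from 4.17% of the lipase and fat storage genes to 50% of the propionate breakdown genes. Of all 12151 genes 5% were called lower and 4.87% higher, and 6303 lay below 0. The delta-9 desaturases FAT-5, FAT-6 and FAT-7 make monounsaturated fatty acids, the step that feeds storage fat. Of 14 desaturase and elongase genes tested 5 fell and 1 rose, at a median of -0.12. The largest was fat-7 (chromosome V, 7151353 to 7153146), at 22.4, 25.4 and 19.2 FPKM in DMSO+Glu and 12.5, 11.9 and 12.1 FPKM in Nar+Glu. It changed by -0.82 (SE 0.09, adjusted p 8.19e-05), and the naringin libraries lay within 1 FPKM of each other and below all solvent libraries. For fat-5 the values were 39.7, 38.9 and 37.2 against 31.1, 29.7 and 27.6 FPKM, a change of -0.38 (SE 0.07, adjusted p 0.00612). The third enzyme gene, fat-6, was at -0.19 (adjusted p 0.0966) with groups of 54.6, 66.3 and 63.1 against 51.2, 55.8 and 53.2 FPKM that overlapped. The 5 falls in the list became 2 without DMSO+Glu 2 and 3 without any 1 of the naringin libraries or with quantile normalization.

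In fatty acid synthesis 2 of 10 genes fell, art-1, a trans-2-enoyl-CoA reductase gene (-0.33), and let-767, a 3-ketoacyl reductase gene (-0.37, 47.7, 44.2 and 41.0 against 33.4, 33.5 and 35.3 FPKM). In the methionine cycle and phosphatidylcholine synthesis, 2 of 16 fell and 14 lay below 0. These were ahcy-1, which encodes S-adenosylhomocysteine hydrolase and measured 363, 354 and 348 against 269, 289 and 277 FPKM (-0.35, adjusted p 0.000432), and pmt-2, which encodes a phosphoethanolamine methyltransferase (-0.44, 93.4, 101.5 and 86.6 against 67.5, 70.7 and 67.8 FPKM). The groups did not overlap for either gene, as for 34.6% of all genes. The fatty acid-binding protein gene lbp-6 was the 1 of 8 in its family that fell (-0.48).

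Genes for burning fat did not move together. The mitochondrial acyl-CoA synthetase gene acs-2 (chromosome V, 15567394 to 15569897), a target of NHR-49, rose from 32.3, 30.0 and 28.3 FPKM to 40.9, 42.1 and 42.2 FPKM, a change of 0.46 (SE 0.07, adjusted p 0.00212). Its mean was 9.72 ± 0.803 FPKM in Control and 48.3 ± 3.24 FPKM in Glu (SD, n = 3), so both solvent-treated groups lay below the glucose group. Of 32 mitochondrial beta-oxidation genes 6 fell and 1 rose, at a median of -0.12, with the acyl-CoA dehydrogenase gene acdh-3 at -0.28 (49.4, 48.9 and 48.0 against 38.6, 41.7 and 39.7 FPKM). Those 6 became 3 without DMSO+Glu 1, 4 without DMSO+Glu 2 or Nar+Glu 1, and 2 without Nar+Glu 3. Of 27 peroxisomal genes 4 fell, led by the ascaroside-pathway oxidase acox-1.2 (-0.39, adjusted p 0.0163), which lost its call without DMSO+Glu 2 (0.0536), Nar+Glu 1 (0.061) or Nar+Glu 2 (0.0583). The 4 falls became 2, 0, 1, 1, 0 and 2 as DMSO+Glu 1, 2 and 3 and Nar+Glu 1, 2 and 3 were left out, and 2 in a fit to only the 6 libraries. Among the propionate breakdown genes 5 of 10 fell, led by hphd-1 (-0.36, adjusted p 0.00608), but quantile normalization left 1, as did leaving out DMSO+Glu 1 or 2 or Nar+Glu 1. Without Nar+Glu 3 there were 2, and without DMSO+Glu 3 or in a fit to only the 6 libraries there were 3. The lipase and fat storage list had 1 call among 24, acl-6 at -0.30 (adjusted p 0.0314), which was lost without any 1 of the 6 libraries (0.0558 to 0.102).

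Sugar and energy genes of the cytosol and mitochondria were lower by small steps. Glycolysis splits glucose to pyruvate, and the citrate cycle and respiratory chain oxidize it further. Of 18 glycolysis genes 9 fell and 0 rose by limma (0 had an unadjusted p below 0.05 in the higher direction), at a median of -0.20, or -0.12 with quantile normalization. The aldolase gene aldo-1 measured 40.3, 42.6 and 39.4 FPKM in DMSO+Glu and 30.3, 29.7 and 29.7 FPKM in Nar+Glu, a change of -0.43 (SE 0.06, adjusted p 0.000953). The glyceraldehyde 3-phosphate dehydrogenase genes gpd-2 and gpd-3, neighbours on chromosome X with near-identical sequences, changed by -0.38 and -0.33. Naringin libraries were below solvent libraries for all 3 genes, as they were for 18.9% of all genes. The 3 were named for having the smallest adjusted p of the list. The count of 9 became 5 without DMSO+Glu 1 or Nar+Glu 2 and 4 without DMSO+Glu 3 or Nar+Glu 3.

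The opposite sign was found at the glyoxylate cycle, which turns fat-derived acetyl-CoA into sugar precursors. Its bifunctional enzyme gene icl-1 (chromosome V, 724332 to 728004) rose from 91.0, 81.5 and 85.6 FPKM to 117, 120 and 105 FPKM, a change of 0.40 (SE 0.09, adjusted p 0.0122), with Control at 52.9 FPKM and Glu at 128.7 FPKM. The gluconeogenic gene fbp-1 was lower at -0.23 (adjusted p 0.0359), a call lost without any 1 of the 6 libraries (0.0686 to 0.106). In trehalose and glycogen metabolism, the trehalase gene tre-5 was called higher (0.51, adjusted p 0.0267) and the glycogen synthase gene gsy-1 lower (-0.22, adjusted p 0.0462). The tre-5 call held among the leave-one-out fits only without Nar+Glu 2 (0.0534 to 0.119 in the others), and that of gsy-1 in none of them (0.0757 to 0.141).

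Of 27 citrate cycle and pyruvate dehydrogenase genes 12 fell, 26 lay below 0, and the median was -0.22. The mitochondrial malate dehydrogenase gene mdh-2 was at 162, 147 and 145 FPKM in DMSO+Glu and 117, 113 and 110 FPKM in Nar+Glu, a change of -0.42 (SE 0.06, adjusted p 0.000542). Of 35 nuclear genes for respiratory chain subunits 15 fell, at a median of -0.20. The ATP synthase beta subunit gene atp-2 measured 384, 362 and 378 FPKM against 307, 312 and 301 FPKM (-0.29, SE 0.05, adjusted p 0.00183), and the complex I gene gas-1 measured 26.1, 25.9 and 26.4 FPKM against 21.1, 20.0 and 19.3 FPKM (-0.36). The summed level of the respiratory list was 2525 ± 47.3 FPKM with solvent and 2190 ± 45.1 FPKM with naringin (SD, n = 3), and these sums did not overlap. The 12 citrate cycle calls became 2 without DMSO+Glu 1 or Nar+Glu 3, 4 without Nar+Glu 1, and 7 without DMSO+Glu 2. The 15 respiratory calls became 6 without DMSO+Glu 1 or Nar+Glu 3, 5 without Nar+Glu 1, 8 without DMSO+Glu 2 or with quantile normalization, and 9 without Nar+Glu 2.

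Subunits encoded by the mitochondrial genome did not share this direction. Of 11 such genes 10 lay above 0, at a median of 0.17, and 1 was called (3 with quantile normalization). That gene, nduo-6, measured 10.3, 0.0294 and 0.0211 FPKM in DMSO+Glu and 16.4, 13.5 and 21.7 FPKM in Nar+Glu (log2 change 2.97, SE 0.63, adjusted p 0.0107). A pair of solvent libraries was thus near 0, where Control and Glu means were 12.7 and 22.5 FPKM, and the call was lost in a fit to only the 6 libraries (0.0512). The small complex I gene ndfl-4 went the other way, at 6.26 ± 1.67 and 2.68 ± 4.57 FPKM (SD, n = 3), and was not called. The sum of the 11 genes was 5473 ± 224 FPKM with solvent and 6163 ± 291 FPKM with naringin.

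**Figure D4:**
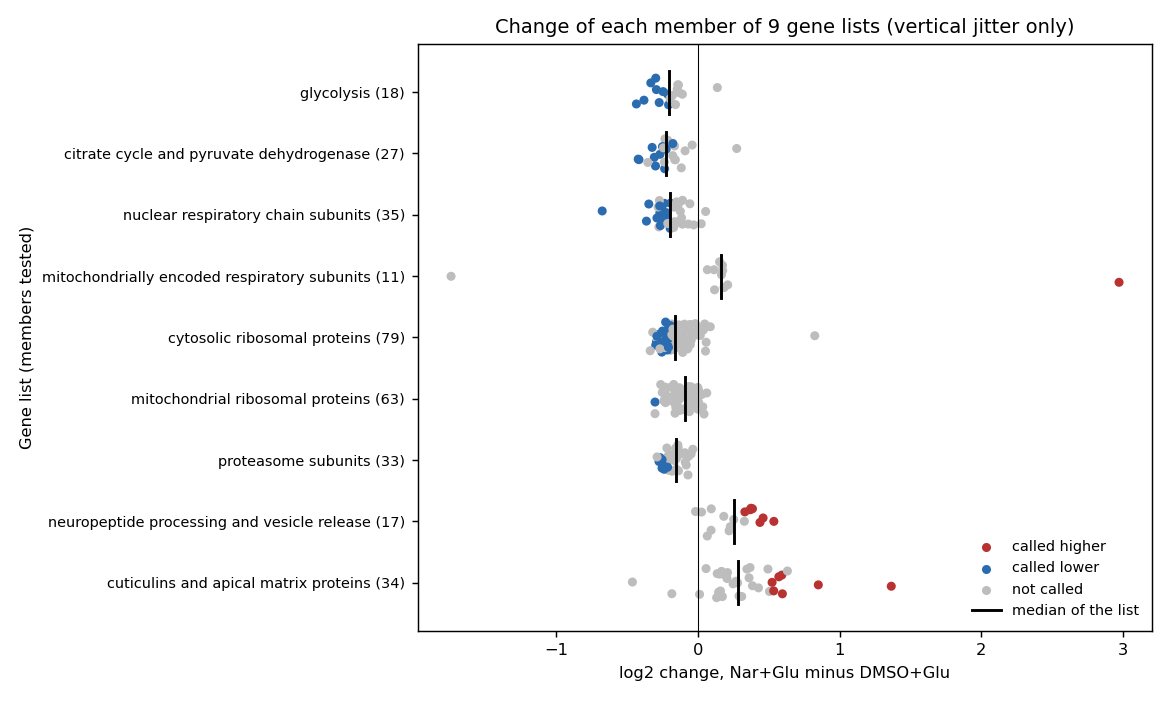
Log2 change of each tested member of 9 gene lists, blue where called lower and red where called higher in Nar+Glu, with a black bar at the median of the list. The medians of glycolysis (-0.20), citrate cycle (-0.22) and nuclear respiratory genes (-0.20) lie left of 0, while those of the mitochondrially encoded genes (0.17), neuropeptide processing and vesicle release (0.25) and cuticulins (0.28) lie right of it.

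Genes for making and clearing proteins lay slightly below 0 for the most part. So did genes above 100 FPKM as a whole, at a median of -0.12, with 117 of 468 called lower. No comparison matched on abundance was run. Of 79 cytosolic ribosomal protein genes 25 fell and 0 rose by limma (1 had an unadjusted p below 0.05 in the higher direction), at a median of -0.16. The large-subunit gene rpl-20 was at 296, 281 and 281 FPKM against 239, 233.7 and 228 FPKM (-0.29, SE 0.05, adjusted p 0.00248). The count of 25 changed with scaling and when single libraries were left out. It was 5 with quantile normalization, where the median was -0.06, 14 with median-ratio scaling and 7 in a fit to only the 6 libraries. Without DMSO+Glu 1, DMSO+Glu 3, Nar+Glu 1 and Nar+Glu 3 it was 9, 8, 9 and 6. Mitochondrial ribosomal protein genes had 1 call among 63, below the 5% of all genes.

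All 33 proteasome genes lay below 0, at a median of -0.16 (-0.09 with quantile normalization), and 7 were called, among them pbs-6 of the catalytic core (-0.27, adjusted p 0.0118), a call lost without DMSO+Glu 3 (0.059) or Nar+Glu 1 (0.0501). Without Nar+Glu 1 there were 0 calls, without DMSO+Glu 1 or Nar+Glu 3 there was 1, without DMSO+Glu 3 there were 3 and without Nar+Glu 2 there were 4. Of 28 cytosolic chaperone genes 5 fell, with the chaperonin subunit gene cct-1 at -0.36 and the constitutive Hsp70 gene hsp-1 at -0.26 (522, 485 and 517 against 423, 443 and 408 FPKM). The small heat shock gene hsp-12.1 rose by 0.89, from 4.47, 3.63 and 2.77 FPKM to 7.17, 6.61 and 8.83 FPKM. The chaperone falls became 2 without DMSO+Glu 1 or 3 or Nar+Glu 3, and 3 without Nar+Glu 1 or 2. F-box adaptor genes, a large family of substrate adaptors for ubiquitin ligases, had 2 higher calls among 108 tested of 209, and 0 or 1 without any 1 library.

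Lysosomal proteases were called lower more often than higher. Of 22 tested 8 fell and 2 rose, at a median of -0.21, or -0.13 with quantile normalization. The aspartyl protease gene asp-1 (chromosome V, 19049562 to 19050752), expressed in the intestine, was at 489, 476 and 485 FPKM in DMSO+Glu and 347, 369 and 352 FPKM in Nar+Glu (-0.44, SE 0.05, adjusted p 0.000116). The necrosis-linked protease gene asp-3 changed by -0.27 (256, 238 and 247 against 198, 210 and 205 FPKM). The cathepsin B-like gene cpr-2 went up 1.14, from 1.73, 1.64 and 1.88 FPKM to 5.51, 5.43 and 4.32 FPKM, with Control at 0.377 FPKM and Glu at 3.10 FPKM. The 8 falls became 5 without DMSO+Glu 1 or Nar+Glu 1, and the 2 rises became 1 without any library except DMSO+Glu 2. Among 21 V-ATPase genes, which encode the proton pump that acidifies lysosomes, 1 was called, the intestinal subunit vha-6 (-0.40, 35.02, 34.8 and 35.6 against 25.4, 27.5 and 26.2 FPKM). Both asp-1 and vha-6 belong to the intestinal markers, of which 4 of 10 fell in all, while the intestinal gene elt-7 stood at 0.35 and ifb-2 at 0.17, neither called. The share of intestine in these libraries was not tested beyond these markers.

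Autophagy genes, which build the vesicles that deliver cytoplasm to lysosomes, had 3 higher and 1 lower call among 31, at a median of 0.06. The clearest was epg-2, an adaptor for the removal of protein aggregates in embryos (29.3, 30.9 and 28.8 against 37.6, 38.9 and 40.003 FPKM, log2 change 0.38, SE 0.08, adjusted p 0.00838). The lipid transfer gene atg-2 rose by 0.29 (adjusted p 0.0138), with the call lost without DMSO+Glu 3 (0.0525) or Nar+Glu 2 (0.0545). The FoxA factor gene pha-4 was called at 0.48 (7.05, 7.23 and 5.89 against 10.8, 9.18 and 9.35 FPKM, adjusted p 0.0432). Leaving out any 1 of the 6 libraries ended the pha-4 call (0.0529 to 0.147). The gene is also a pharynx marker, and the summed pharynx markers overlapped between the groups, at 120 to 144 FPKM with solvent and 137 to 149 FPKM with naringin. In the list, 1 higher call was left without DMSO+Glu 3, and the lower call was lost without any 1 library. Both median-ratio scaling and quantile normalization gave 7 higher calls in the autophagy list.

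Several regulators of autophagy and fat that the study names lay near the threshold of an adjusted p of 0.05. They fell on 1 side of it or the other according to the alternative. The study's own thresholds were an unadjusted p below 0.05 and more than 1.1-fold, and hlh-30, yap-1, unc-51 and lgg-1 met both in the limma fit. By quantitative PCR the study reported hlh-30, lgg-1, unc-51, aak-2, acs-4 and nhr-49 as raised by naringin. The transcription factor gene hlh-30, a regulator of lysosomes and autophagy, was at 36.9, 36.4 and 33.3 FPKM in DMSO+Glu and 55.6, 40.5 and 45.6 FPKM in Nar+Glu, a change of 0.39 (SE 0.12, adjusted p 0.0592). The groups did not overlap, but Nar+Glu 1 stood well above the other naringin libraries. It passed under 5 alternatives, the replicate block (0.0169), quantile normalization (0.0239), median-ratio scaling (0.028), array weights (0.0342) and leaving out Nar+Glu 2 (0.0396). The change was 0.33 (adjusted p 0.0555) for yap-1, the Hippo pathway coactivator gene, 0.20 (0.0928) for the autophagy kinase gene unc-51, 0.17 (0.11) for lgg-1, and 0.16 (0.434) for skn-1. Of these, yap-1 passed under 5 alternatives (adjusted p 0.0107 to 0.0491, the lowest with quantile normalization), unc-51 with quantile normalization (0.019) or median-ratio scaling (0.0272), and lgg-1 with the same (0.00709 and 0.0244). The gene skn-1 passed under none (0.123 to 0.633 in the 16 alternatives other than the library covariate). For bec-1 (-0.01, a sign that changed with scaling), daf-16 (0.10) and aak-2 (-0.05) the groups overlapped. Among metabolic genes of this set, acs-2 rose and fat-5, fat-7 and ech-6 (-0.25, adjusted p 0.0262) fell. For ech-6 the call ended without DMSO+Glu 1 (0.0712) or 2 (0.0794) and Nar+Glu 1 (0.103) or 3 (0.0633). The genes acs-4 (-0.18), nhr-49 (0.09) and sbp-1 (0.18) were not called, although acs-4 passed with array weights (0.0477) or without DMSO+Glu 2 (0.0473), and fat-6 without DMSO+Glu 1 (0.0305). The actin gene act-1 was itself called lower (-0.22, adjusted p 0.0258), from 342, 344 and 325 FPKM to 287, 296 and 283 FPKM, although quantile normalization (0.19) and leaving out DMSO+Glu 1 (0.0831) or 2 (0.0608) or Nar+Glu 1 (0.0727) or 3 (0.0902) ended the call.

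Defence genes were called in small numbers. Of 29 lysozyme and saposin-like genes 7 fell and 1 rose, at a median of -0.18 (-0.12 with quantile normalization), with lys-8 at 85.6, 79.7 and 83.5 against 63.0, 67.7 and 64.2 FPKM (-0.35) and lys-4 at -0.34. Those 7 became 4 without DMSO+Glu 2 or 3 or Nar+Glu 3. Among 73 C-type lectins tested, secreted proteins with sugar-binding folds, 5 fell and 4 rose, near the share of all genes, and the falls became 3, 3, 1, 1 and 2 without DMSO+Glu 1, 2 or 3 or Nar+Glu 1 or 3. The gene clec-1 fell by 0.47 and clec-78 rose by 0.67. In the antimicrobial peptides of the epidermis, cnc-2 fell by 0.74 (4.17, 3.94 and 3.62 against 1.93, 2.05 and 1.81 FPKM) while nlp-29 rose by 0.45 (62.6, 67.2 and 64.4 against 91.6, 87.8 and 87.6 FPKM, adjusted p 0.0226). The nlp-29 call did not hold without any library except DMSO+Glu 2 (0.0539 to 0.0813). The DAF-16-regulated gene dod-23 fell by 0.47 (adjusted p 0.000886). The p38 pathway and its effectors had 0 calls among 14 by limma, with 2 higher and 0 lower at an unadjusted p below 0.05, and 2 calls under either scaling alternative.

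Detoxification and antioxidant genes had few calls. Of 20 superoxide dismutase, catalase and peroxiredoxin genes 4 fell, among them the cytosolic sod-1 (-0.27, adjusted p 0.0229), and without DMSO+Glu 1, Nar+Glu 1 or Nar+Glu 3 there were 0 (adjusted p 0.104, 0.069 and 0.0788 for sod-1). Without DMSO+Glu 3 there was 1, and without Nar+Glu 2 there were 2. Of 31 glutathione genes 4 fell, a count of 1 without DMSO+Glu 1, Nar+Glu 1 or Nar+Glu 3 and 2 without DMSO+Glu 2, and median-ratio scaling added 2 rises. Among them gst-27 kept its call (-0.43, 19.03, 18.6 and 17.7 against 13.7, 12.5 and 14.1 FPKM). Cytochrome P450 genes, the oxidases of foreign compounds, had 1 call among 42 tested of 56. It was cyp-34A9, higher by 0.38, and it was lost without DMSO+Glu 1 (0.0633) or Nar+Glu 2 (0.0534), while median-ratio scaling gave 3 calls in the list. UDP-glucuronosyltransferase genes, which attach sugars to such compounds, had 2 lower calls among 44, a count of 1 without DMSO+Glu 1, Nar+Glu 1 or Nar+Glu 3, with ugt-47 at -0.52 (9.23, 10.6 and 8.52 against 6.50, 5.90 and 6.40 FPKM). With quantile normalization 6 were lower and 1 higher, and the median moved from -0.04 to -0.12.

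Signalling genes had few calls. The insulin receptor pathway had 0 calls among 12 by limma and 0 at an unadjusted p below 0.05. The TOR and AMPK genes had 0 among 18, with 1 at an unadjusted p below 0.05, and the Hippo genes had 0 among 9, with 3. TGF-beta genes had 0 calls among 20, though 16 lay above 0 and 7 had an unadjusted p below 0.05, all higher. Of all genes, 12.9% had such a p in the higher direction. Quantile normalization called 2 TGF-beta genes and median-ratio scaling 3, and each called 1 Hippo gene. The covariate fit, which called 2 genes in all, had 0 here and says nothing about these lists. In the Wnt pathway 1 of 28 was called, the frizzled receptor gene cfz-2, which rose by 0.53 from 3.78, 4.54 and 3.83 FPKM to 5.97, 6.97 and 5.99 FPKM. Of 19 insulin-like peptide genes tested of 30, 3 rose (15.8%, against 4.87% of all genes). For ins-34 the change was 0.63, from 2.83, 3.49 and 3.18 FPKM to 4.64, 6.40 and 5.39 FPKM. The calls of ins-1 (0.81, adjusted p 0.0265) and ins-24 (0.42, adjusted p 0.0325) were lost without at least 4 of the 6 libraries each, and 1 call was left without DMSO+Glu 1 or 3 or Nar+Glu 2. Of the nuclear hormone receptor genes tested 3 were called higher and 136 were not called, below the 4.87% of all genes, although 99 lay above 0. Without DMSO+Glu 2 there were 5 calls, and with median-ratio scaling 8. The receptor gene nhr-3 rose by 0.52 and nhr-42 by 0.60.

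Genes for packing and releasing neuropeptides and transmitters were called higher more often than the 4.87% of all genes, while the peptide genes themselves mostly did not pass the test. Of 17 processing and release genes 7 rose, 16 lay above 0, and the median was 0.25. The synaptic priming gene unc-13 (chromosome I, 7422785 to 7454116) was at 6.35, 6.90 and 5.86 FPKM in DMSO+Glu and 9.21, 9.21 and 8.93 FPKM in Nar+Glu, a change of 0.46 (SE 0.10, adjusted p 0.0106). The dense-core vesicle gene ida-1 rose by 0.37, from 17.7, 16.5 and 16.7 FPKM to 22.02, 22.7 and 21.8 FPKM, and the active-zone gene unc-10 by 0.54 (adjusted p 0.0121), a call lost without DMSO+Glu 1 (0.0612) or Nar+Glu 1 (0.0614). The 7 calls became 2 without DMSO+Glu 1 or Nar+Glu 1, and 3 without DMSO+Glu 3, Nar+Glu 2 or Nar+Glu 3. Of 30 FMRFamide-like peptide genes flp-6 rose (0.47, 20.5, 21.3 and 21.5 against 28.5, 32.5 and 27.9 FPKM), and of 37 other neuropeptide genes 0 passed by limma, with 7 higher and 1 lower at an unadjusted p below 0.05. Neuron markers had a median of 0.30, with 2 of 9 called, rab-3 and snt-1, both members of the release list. Leaving out any library except DMSO+Glu 2 ended both calls (adjusted p 0.0633 to 0.11 for rab-3 and 0.0716 to 0.156 for snt-1), and that of snt-1 was also lost with no filter (0.0522), in the 6 libraries alone (0.0635) and under the replicate block (0.0547). The share of neuronal RNA was not tested beyond these markers.

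Muscle genes changed in both directions. Of 33 myosin and thin filament genes 4 rose and 5 fell, at a median of -0.01, which became 0.06 with quantile normalization. The troponin I gene tni-1 rose by 0.75 (30.5, 40.3 and 33.2 against 59.3, 61.5 and 55.7 FPKM, adjusted p 0.00111), the troponin T gene tnt-4 by 0.68 (14.6, 17.4 and 16.7 against 30.8, 24.2 and 25.0 FPKM) and the myosin heavy chain gene myo-5 by 0.49. The body wall paramyosin gene unc-15 fell by 0.47, from 137, 115 and 133.8 FPKM to 89.5, 92.7 and 95.8 FPKM. Microvillar actin act-5, which is intestinal, fell by 0.33. The 5 falls became 3 without DMSO+Glu 1 or 2 and 2 without Nar+Glu 3.

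At the transcript level 385 of 17588 transcripts were called (2.19%), 156 higher (0.887%) and 229 lower (1.3%). Of these, 343 belonged to genes called themselves and 42 to genes that were not. Of the 3319 genes with 2 or more tested transcripts, 5 had transcripts called in opposite directions while the gene as a whole was not. The count of 385 was 93 in a fit to only the 6 libraries, and 179, 277, 172, 152, 221 and 166 without DMSO+Glu 1, 2 and 3 and Nar+Glu 1, 2 and 3.

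The clearest of the 5 genes was hpo-13 on chromosome I. Its transcript Y105E8A.10c.2 was at 14.4, 13.4 and 15.1 FPKM in DMSO+Glu and 0.740, 0.811 and 1.01 FPKM in Nar+Glu (log2 change -3.04, SE 0.12, adjusted p 6.61e-06), while Y105E8A.10c.1 went from 8.23, 9.24 and 6.75 FPKM to 18.6, 15.9 and 18.8 FPKM (1.05, adjusted p 0.00385). Naringin libraries resembled Control for both transcripts (0.955 and 22.1 FPKM), and solvent libraries resembled Glu (13.2 and 7.63 FPKM). For the tropomyosin gene lev-11, which regulates muscle contraction, Y105E8B.1c went from 4.72, 4.30 and 2.09 FPKM to 0.237, 0.155 and 0.345 FPKM (-1.87) and Y105E8B.1l from 0.201, 0.298 and 1.33 FPKM to 5.24, 5.22 and 4.13 FPKM (1.93). In a fit to only the 6 libraries the calls of Y105E8A.10c.1 (adjusted p 0.0516), Y105E8B.1c (0.0661) and Y105E8B.1l (0.0729) were lost. The last pair were minor transcripts of lev-11, whose main transcript Y105E8B.1a lay at 53.6 to 70.9 FPKM with solvent and 47.3 to 48.1 FPKM with naringin.

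The other 3 genes were cpt-6, him-19 and slr-2. In cpt-6, a carnitine palmitoyltransferase family gene, W01A11.5.2 was below 0.01 FPKM in every solvent library and at 1.92, 1.74 and 2.15 FPKM with naringin. Its Control and Glu means were 1.90 and 1.65 FPKM, so DMSO+Glu was the group that stood apart. The change of W01A11.5.1 was -0.62, a call lost in the 6 libraries alone (0.11) and without Nar+Glu 1 (0.0528) or 3 (0.0509). Its means were 4.97 FPKM in Control, 4.41 FPKM in Glu, 6.98 FPKM in DMSO+Glu and 4.17 FPKM in Nar+Glu. In him-19, a meiotic gene, Y95B8A.11b was higher (1.14) and Y95B8A.11c lower (-1.28). Group means in Control, Glu, DMSO+Glu and Nar+Glu were 6.90, 4.54, 1.74 and 4.97 FPKM for Y95B8A.11b. They were 1.48, 2.03, 5.07 and 1.56 FPKM for Y95B8A.11c, so DMSO+Glu again stood apart. The Y95B8A.11c call was lost in 10 of 15 alternatives, among them each leave-one-out fit (0.0594 to 0.118), the 6 libraries alone (0.112) and the replicate block (0.0863), and the Y95B8A.11b call in 3, among them the 6 libraries alone (0.0876). In slr-2, transcripts Y59A8B.13b and Y59A8B.13d were higher and Y59A8B.13a and Y59A8B.13c lower, the last from 12.3, 12.2 and 11.7 FPKM to listed values of 0 in all 3 naringin libraries. These calls were close to the threshold. All 4 were lost in each leave-one-out fit (0.0595 to 0.136), and Y59A8B.13a, Y59A8B.13c and Y59A8B.13d also under the replicate block (0.071, 0.071 and 0.0833), so that Y59A8B.13a lost its call in 11 of 15 alternatives, Y59A8B.13c and Y59A8B.13d in 10 of 16 and Y59A8B.13b in 6. The Glu libraries of slr-2 were themselves divided, with Y59A8B.13c at 14.4, 9.52 and 0 FPKM. Transcript levels within a gene are estimates from shared reads, and whether these switches lie in the RNA or in the assignment of reads was not tested.

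**Figure D5:**
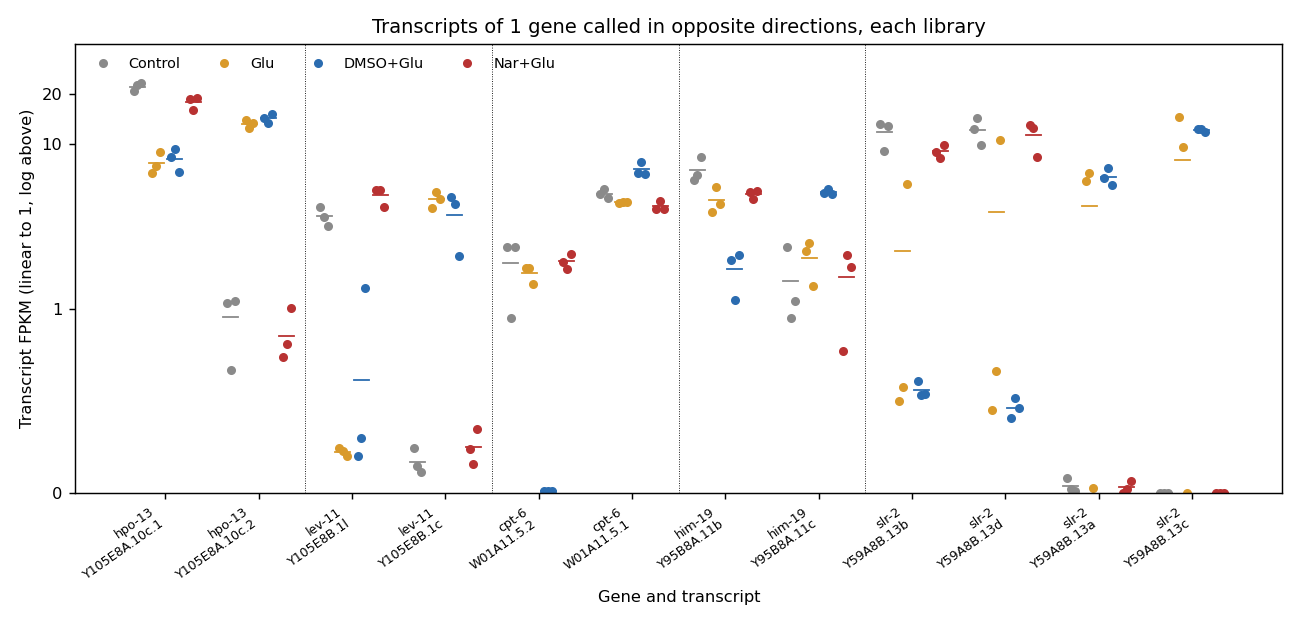
Transcript FPKM in each library (linear up to 1, log above) for the transcripts of 5 genes that were called in opposite directions, with bars at group means. For hpo-13 and lev-11 the Nar+Glu points lie near Control and the DMSO+Glu points near Glu, and the Glu points of slr-2 are divided. For cpt-6 and him-19 the DMSO+Glu points lie apart from those of the other groups.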

How the data were processed

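Gene and transcript abundances were deposited as FPKM for each sample. The authors aligned reads from stranded poly(A)-enriched libraries with HISAT2 2.1.0 to WBcel235, assembled and quantified them with StringTie 1.3.3, and exported FPKM with Ballgown. The annotation release and the use of strand in counting are not given in the sources used here. FPKM carry no depth, so no counting interval is given. Fold changes of abundant families shift with library composition, because FPKM scale each library by its total.

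Values with a mean above 1 FPKM over 12 libraries were compared as log2(FPKM + 1) in limma (version 3.58.1, R 4.3.3) by a moderated linear fit of 4 groups with a mean-variance trend and the contrast Nar+Glu minus DMSO+Glu, and called at an adjusted p below 0.05 (Benjamini-Hochberg over all features). At the study thresholds (unadjusted p below 0.05, more than 1.1-fold) 3220 genes passed, 1555 higher and 1665 lower. Genes were matched to the WBcel235 annotation, 14037 by name and 1089 by sequence name, with 239 unmatched. The 61 gene lists and 8 marker lists were defined by gene symbols, and only counts and medians were taken from them. Genes named are the 12 largest rises and 12 largest falls that were called, had a mean of at least 5 FPKM and did not overlap, at most 3 called members of a list by smallest adjusted p, at most 6 genes with opposite transcripts, and the genes the study tested or names. Other list members named beside these were chosen after their values were seen. The members, lists and rule were chosen with earlier results of these data known.

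Alternatives were pseudocounts of 0.1 and 5, no filter, a mean above 5 FPKM, median-ratio scaling, quantile normalization, only the 6 libraries, no trend, weighted arrays, a replicate block, a library covariate without moderation, and leaving out each library. The covariate fit was not run for transcripts. Residuals of libraries with the same replicate number correlated at 0.044, 0.045 and 0.013, and those with different numbers at -0.048 to 0.0040. The numbers were not taken as pairs, although each same-number value was above every other and the labels do not settle the question. On simulated data, the test recovered 96% of 200 genes and 59.5% of 200 transcripts changed 2-fold, with 7 and 9 false calls. Smaller changes were not simulated, and only 77 of the 1199 gene calls were past 2-fold, so these rates do not cover most calls. Plots used Python 3.11.15 and matplotlib 3.10.9. The series-wide tables and circular RNA files were not used here.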

Additional observations from a re-analysis of the deposited data

How the results depend on the processing

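Gene calls numbered 921 to 1690 under every alternative that kept all 6 libraries and moderation, against 1199, and the calls in the higher direction moved from 592 to 373 with a mean above 5 FPKM and 906 with median-ratio scaling. The share of higher calls was 49.4%, and 40.5% and 57.1% in those fits, 57.3% without the trend, and 42.4% to 56.3% when 1 library was left out. Leaving out 1 library gave 555 to 1103 genes (264 to 621 higher, 281 to 482 lower). The library covariate gave 2 genes, 0 higher and 2 lower (H28O16.1 and vpr-1). None of the 156 called genes selected by the naming rule, some of which are not described above, kept its call there. Of these, 91 kept call and direction in the other 16 alternatives, 65 lost the call in at least 1, and 0 changed sign. Transcript calls, 385 (156 higher, 229 lower), fell to 93 (53 and 40) in the 6 libraries and ranged from 152 to 277 (51 to 127 higher, 97 to 150 lower) when 1 library was left out. Higher transcript calls were 242 with quantile normalization, and lower ones 129 without the trend. Replicate numbers were not taken as pairs, and the replicate block gave 1118 genes (526 higher, 592 lower) and 227 transcripts (87 higher, 140 lower). Genes not called changed sign near 0. The bec-1 change was 0.014 under median-ratio scaling and 0.041 under quantile normalization, and -0.041 to 0.026 when 1 library was left out (above 0 without DMSO+Glu replicate 2 or 3 or Nar+Glu replicate 3). The nlp-40 change was 0.0016 and 0.052 in the same fits, and -0.073 to 0.017 when 1 library was left out (above 0 without DMSO+Glu replicate 2 or Nar+Glu replicate 3). With quantile normalization daf-18 was at 0.046 and ragc-1 at 0.0042. Without counts, the depth behind low values is unknown, and the cause of these shifts was not tested.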

Other observations

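Of the genes annotated as ncRNA 6.03% were called, against 9.87% of all genes, and more of their calls were higher than lower. Of 282 tested, 15 were called higher and 2 lower, at a median of 0.14, and of 28 lincRNA genes 1 was called in each direction. Among all genes at a mean of 1 to 5 FPKM, 72.3% of the calls were higher, and no comparison matched on abundance was run. The most abundant was tts-1 (chromosome X, 1504131 to 1504841), a long noncoding RNA known from long-lived worms, at 330, 319 and 330 FPKM in DMSO+Glu and 482, 539 and 516 FPKM in Nar+Glu, higher by 0.65 on the log2 scale (SE 0.06, adjusted p 2.53e-05), with Control at 270 ± 21.1 FPKM and Glu at 463 ± 16.5 FPKM (SD, n = 3). Its neighbour in name, tts-2 (chromosome II, 10201125 to 10202230), was at 56.7, 57.6 and 47.02 against 116, 111 and 113 FPKM (1.07, adjusted p 1.26e-05). The stress-linked double-stranded RNA rncs-1 was at 6.30, 2.91 and 3.99 against 7.37, 7.83 and 7.68 FPKM (0.72, adjusted p 0.0212). The naringin libraries were above the solvent libraries for all 3 genes, as the selection of the largest rises required for tts-2. The tts-1 and rncs-1 genes were chosen after their values were seen, and their calls were not followed through the alternatives.

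The split of calls by direction varied among chromosomes. On the X chromosome, 118 of 1736 tested genes were called higher and 58 lower, at a median of 0.07, whereas on the autosomes 466 of 10219 were higher and 536 lower, at a median of -0.02. Among the autosomes, chromosome V also had more higher than lower calls (57.7% of its calls), and the other 4 had fewer. No test of this split was run.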
